A study of Saccharomyces cerevisiae with 8 samples.

Results

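Of the 8 nucleosome maps of the series, 4 came from budding yeast (Saccharomyces cerevisiae) treated with 1,10-phenanthroline, and these 4 libraries are described here. They were chosen by their treatment label alone. Together they hold 298869 of the 590971 nucleosome calls of the series. All cells were of line PPY1, mating type MATa, with the deletions his3Δ0, leu2Δ0, met15Δ0 and ura3Δ0 and the disruption bar1::leu2, and were grown in YPD rich medium and synchronised in G1. The drug was given at 100 µg/ml for 30 min at 30 °C. By the labels, 81 bp of extra sequence sat in 2 genes of each strain: CKB2 and DGK1 in strain 1, PPT1 and SLM3 in strain 2, TRP4 and PAN5 in strain 3, and UBX5 and BSP1 in strain 4. Each strain gave 1 library. No strain was repeated, so every SD and p-value below measures the spread between libraries of different strains, and values given as ± are SDs over the 4 libraries unless marked SE. Micrococcal nuclease (MNase) digestion was done on semi-intact cells, tuned to about 80% mononucleosomes, and read pairs of 75 bp were sequenced to about 10 M pairs per library, per the labels. The true depth of each library is unknown. RNA was not measured in these libraries, so the extent of the transcription block is not analysed here.

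In yeast genes, nucleosomes stand in an array that starts at the +1 nucleosome, next to a nucleosome-depleted region (NDR) over the promoter. Chromatin remodellers such as RSC, Chd1 and Isw1, and proteins bound in the promoter, are known to place +1 and to space the nucleosomes after it. Elongating RNA polymerase also moves and evicts nucleosomes. 1,10-phenanthroline is a metal chelator that is used in yeast to stop transcription, and it also acts on other enzymes that need metal ions. MNase cuts the DNA between nucleosomes, and the program nucleR turns the protected fragments into calls, each with a centre (dyad) and a score from 0 to 1. That score averages a part for width, high where fragments pile up at 1 place (the width score), and a part for height, which follows coverage within the library (the height score). Class W marks well-positioned calls, for which the width score has to reach 0.6 and the height score 0.4. The scores are relative within a library.

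The libraries were alike in size, and their strain labels went against the calls. They held 74716, 74625, 74442 and 75086 calls in the order of strain labels 1 to 4. Insertion of extra DNA shifts the call coordinates behind it, and 8 of 32 pairs of a library and an insertion site showed such a step, of 79 to 83 bp (median 80.5 bp). None of the 8 steps was in the library labelled with the inserted gene. The steps at CKB2 and DGK1 were in the library labelled strain 2, those at SLM3 and PPT1 in that labelled strain 3, those at TRP4 and PAN5 in that labelled strain 4, and those at UBX5 and BSP1 in that labelled strain 1. The other pairs moved by at most 4 bp. A library is therefore called by its label throughout ("the library labelled strain 2"). On 5 chromosomes, everything from just before the first insertion site to the chromosome end was left out, which kept 58922, 58863, 58675 and 59197 calls and 4728 protein-coding genes. Of the genes that the genotype names, MET17 (MET15 in the labels) and URA3 held 0 calls in all 4 libraries. HIS3 held 2 to 3 calls, LEU2 8 to 11 and BAR1 11 to 13, so these were not empty. Of 5109 genes of at least 500 bp, 129 held 0 calls in all 4 libraries, many of them transposon and subtelomeric genes with near-identical copies. NRM1 (chromosome XIV, 642690 to 643439, sacCer3), a corepressor of G1 transcription, also held 0 calls.

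Under phenanthroline the genome was packed with calls, and about as many were well positioned as fuzzy. The mean score of a call was 0.648, 0.642, 0.646 and 0.643 in the libraries labelled strain 1 to 4, or 0.645 ± 0.00295. Class W held 51.5%, 47.3%, 50.5% and 48.3% of the calls, and the libraries labelled strain 2 and 4 were the lower ones. Calls classed as fuzzy made up 49.9% ± 1.98, and 0.682% ± 0.0573 were classed as uncertain. Most calls had the usual 147 bp, while 8.41% ± 0.0867 were wider, up to 433 to 483 bp.

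Neighbouring calls often overlapped. Whole nucleosomes cannot share bases on 1 DNA molecule, and the calls are drawn from a population of cells. In each library 61.7% to 62.6% of the calls overlapped at least 1 neighbour. The score was 0.555 ± 0.00539 for calls that overlapped a neighbour and 0.793 ± 0.00325 for calls that overlapped none, and the ranges over the 4 libraries (0.548 to 0.561 and 0.788 to 0.796) did not meet. Class W held 27.8% ± 2.65 of the overlapping calls and 84.9% ± 0.949 of the others. Overlap and score come from the same fragments and are not independent measures. An overlapping pair shared a median of 47.8 bp ± 1.5, and 10.6% ± 0.288 of such pairs shared over 73 bp. The median distance to the next dyad was 155, 155, 156 and 155 bp. Distances shorter than 147 bp made up 42.0% ± 0.470, those from 147 to 200 bp 47.6% ± 0.540, and those over 200 bp 10.4% ± 0.270.

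The -1 and +1 dyads lay far apart at the gene start in all 4 libraries, and the calls just upstream of genes scored above those inside genes. Genes here are coding sequences, so the start is the start codon. The median distance from the -1 dyad to the +1 dyad was 270, 269, 269 and 271 bp over 4347 genes. The +1 was chosen by the widest gap near the start codon, once for all 4 libraries, so a wide distance is favoured by that choice. Below, this distance is called the width of the depleted region, and it includes the parts of the -1 and +1 calls that lie between their dyads. The +1 dyad lay on average 6.63, 8.33, 7.01 and 6.65 bp upstream of the start codon. The 9.77% ± 0.188 of calls within 400 bp upstream of a gene and outside any gene scored 0.694 ± 0.0174, and 36.3% ± 3.41 of them overlapped a neighbour. Calls inside genes, 79.4% ± 0.390 of all, scored 0.646 ± 0.00637, with 65.2% ± 0.679 overlapping. Calls elsewhere scored lowest, 0.592 ± 0.00984. The +1 dyad lay close to the start codon on average, so +1 nucleosomes can fall among the upstream calls or among those inside genes. Their share in each class was not counted. The library labelled strain 2 was highest upstream of genes (0.719, against 0.680 to 0.691 in the others) and lowest inside them (0.637, against 0.646 to 0.652).

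Dyads formed a regular train downstream of +1 that could be followed over 7 repeats. In genes with at least 10 nucleosomes, the mean peak positions were 165, 331, 492.5, 650.5, 806, 960.8 and 1121 bp from the +1 dyad. The first peak held 30.6 dyads per kb and the seventh 12.4, while the mean density of calls was 6.22 per kb. The trough on the near side of a peak was 2.76% ± 0.680 of it at the second repeat, 14.3% ± 2.09 at the fifth and 32.1% ± 8.05 at the seventh. The train thus lost contrast with distance but was still present at the seventh repeat in each library. A line through the first 5 peaks gave a repeat of 163.1, 159.1, 162.2 and 161.0 bp, with the library labelled strain 2 shortest. The fifth peak of this library lay at 794 bp, against 804 to 816 bp in the others, and the seventh trough reached 43.9% of the peak, against 26.0% to 29.7%.

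**Figure D1:**
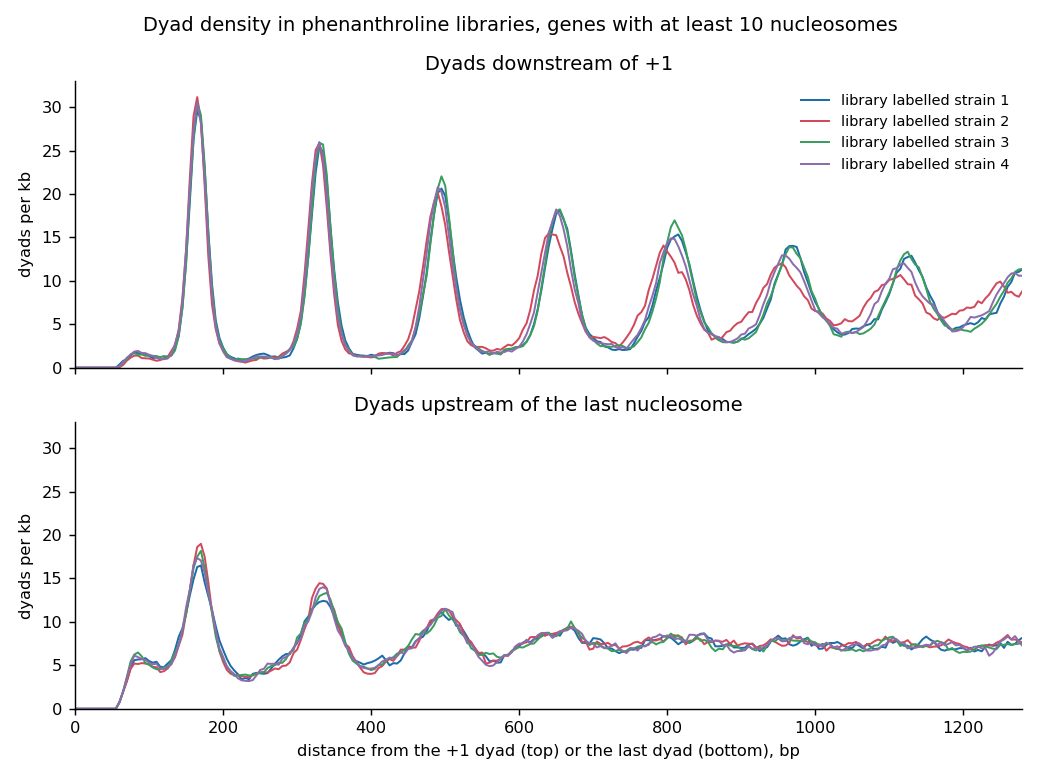
Density of dyads (dyads per kb, smoothed over 21 bp) against distance in bp downstream of the +1 dyad (top) and upstream of the last dyad (bottom), 1 line per phenanthroline library, in genes with at least 10 nucleosomes. Downstream of +1 the peaks fall from 30.6 to 12.4 dyads per kb over 7 repeats, and upstream of the last nucleosome from 17.9 to 9.64 over 4 repeats.

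Score fell along the gene from +2 to +8 in every library. In the 1853 genes with at least 10 nucleosomes, the mean score over the 4 libraries was 0.812 at +1, 0.822 at +2, 0.790 at +3, 0.737 at +4, 0.687 at +5, 0.643 at +6, 0.619 at +7 and 0.595 at +8, and then 0.597 at +9 and at +10. The steepest part lay between +3 and +6, and the means of +8, +9 and +10 differed little. Over all genes, the mean at +1 exceeded that at +4 by 0.0693, 0.0900, 0.0683 and 0.0610 in the 4 libraries (0.0722 ± 0.0125). The mean at +4 exceeded that at +8 by 0.110, 0.122, 0.108 and 0.111 (0.113 ± 0.00607). These means covered 4539 genes at +1, 3885 at +4 and 2436 at +8, so shorter genes enter only the earlier positions. In genes with at least 10 nucleosomes, the same genes at each position, the differences were 0.0744 ± 0.0172 and 0.142 ± 0.00625. Each difference had the same sign in 4 of 4 libraries. The exact two-sided sign-flip permutation test gave p = 0.13 for each, which is the smallest p that 4 libraries allow. The parts of the score fell at different places in the genes with at least 10 nucleosomes, the width score by more up to +4 and the height score by more after it. The height score was 0.871 ± 0.00835 at +1, 0.805 ± 0.0167 at +4 and 0.625 ± 0.0244 at +8, and the width score 0.752 ± 0.0147, 0.670 ± 0.0103 and 0.566 ± 0.0134.

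The library labelled strain 2 stood apart inside genes. Its score at +8 in these long genes was 0.568, against 0.60 to 0.607 in the other 3, and its class W share there was 28.2%, against 37.9% to 41.4%. At +1 its score was the highest of the 4, 0.819 against 0.803 to 0.813. Strain, depth and digestion cannot be told apart with 1 library per strain. Without this library the differences over all genes were 0.0663 for +1 minus +4 and 0.108 for +4 minus +8.

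**Figure D2:**
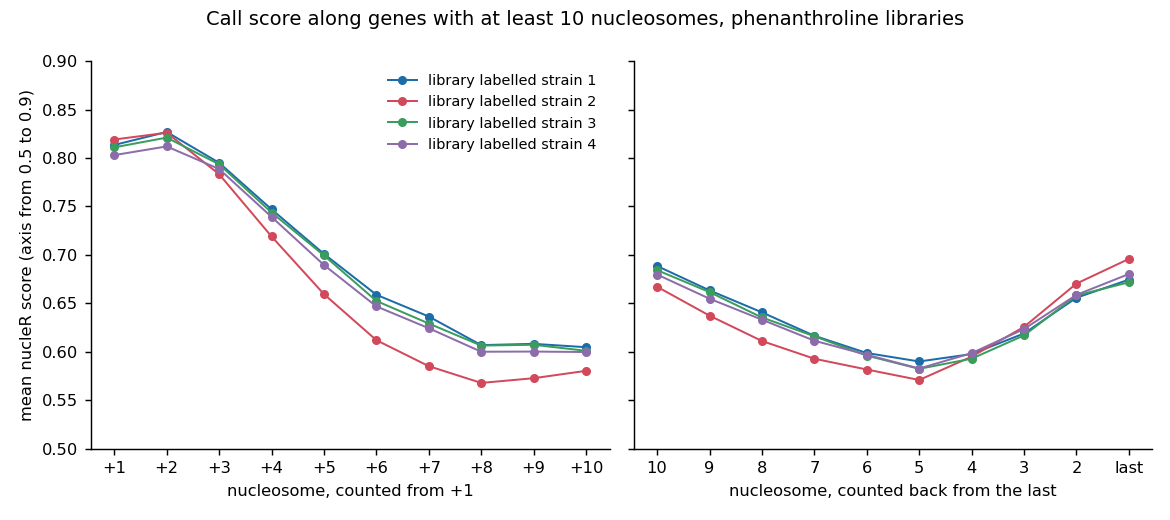
Mean nucleR score (axis from 0.5 to 0.9) of the nucleosomes counted from +1 (left) and counted back from the last nucleosome of the gene (right), 1 line per phenanthroline library, in 1853 genes with at least 10 nucleosomes. The mean falls to 0.595 at +8, and toward the gene end it is 0.582 at the fifth from last and 0.681 at the last.

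Overlap and disagreement between strains grew along the gene as the score fell. In the long genes 18.2% ± 1.66 of the +1 calls overlapped a neighbour, 46.8% ± 2.98 at +4 and 79.4% ± 2.49 at +8. Over all genes, the mean at +8 (2436 genes) exceeded that at +1 (4539 genes) by 55.0 ± 3.38 percentage points. Genes too short for a +8 enter only the mean at +1. Class W held 85.6% ± 0.824 of +1 calls, 74.0% ± 3.29 at +4 and 37.1% ± 6.10 at +8. The same dyad, called in 4 libraries, had a median SD over them of 2.45 bp at +1, 4.44 bp at +4 and 9.82 bp at +8. The share of nucleosomes whose dyads agreed to an SD of 5 bp or less was 80.0% at +1 and 29.2% at +8. Array nucleosomes had to be called in at least 3 libraries, and of those 98.7% at +1 and 92.3% at +8 were called in all 4. Places called in 1 or 2 libraries were left out of the arrays, so these shares do not show how often a position was called at all.

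**Figure D3:**
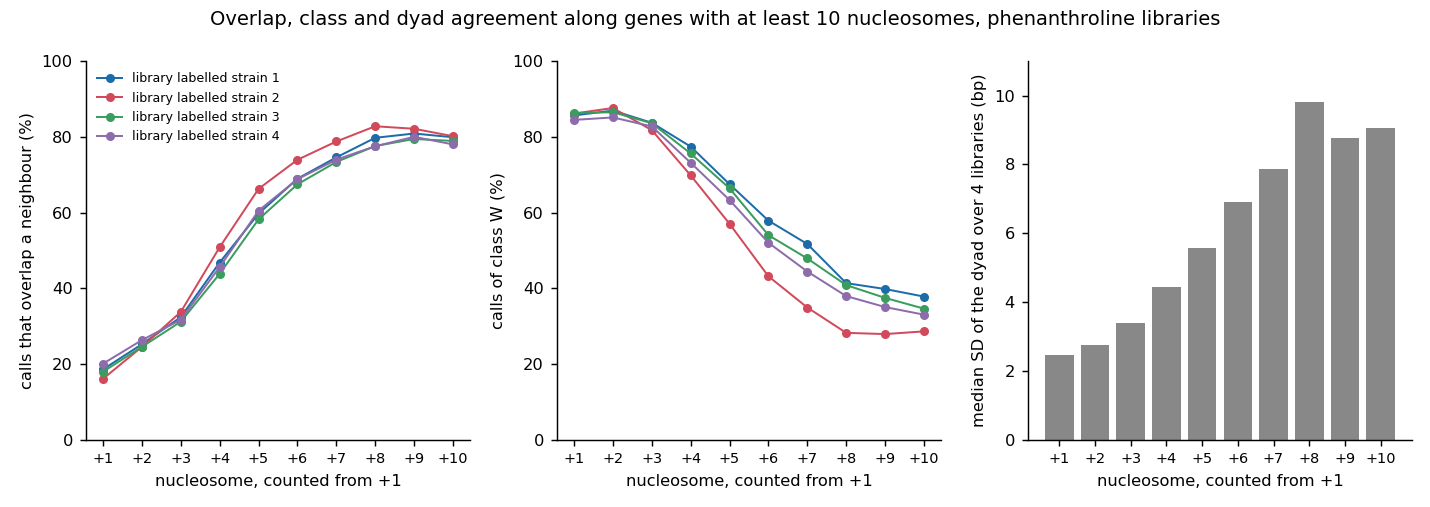
Percent of calls that overlap a neighbour (left), percent of calls in class W (middle), each with 1 line per phenanthroline library, and median SD of the dyad over the 4 libraries in bp (bars, right), by nucleosome from +1 to +10 in 1853 genes with at least 10 nucleosomes. Overlap reaches 79.4% and the dyad SD 9.82 bp at +8, and the library labelled strain 2 is highest in overlap and lowest in class W from +4 on.

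Spacing was widest at the start of the array, by a few base pairs, and on average the difference was smaller among calls that do not overlap. Between dyads 100 to 300 bp apart, the mean distance in all genes was 165 bp ± 0.467 from +1 to +2, 163 bp ± 0.314 from +3 to +4, 160 bp ± 0.442 from +4 to +5 and 158 bp ± 0.324 from +7 to +8. The first interval exceeded the fourth by 6.11, 5.50, 5.39 and 5.06 bp (5.51 ± 0.440 bp), with p = 0.13 by the exact sign-flip permutation test, the smallest possible. Among neighbours that do not overlap, a choice made after seeing the data, the same difference was 0.986, -0.319, 0.997 and 0.444 bp (mean 0.527 bp, exact p = 0.250), negative in the library labelled strain 2. Most calls are 147 bp wide, so this choice cuts off the short distances themselves and cannot tell overlap from spacing. With distances of 120 to 250 bp the difference was 4.57 ± 0.425 bp, positive in 4 of 4 libraries. Per gene, the mean distance in the first part of the array was compared with that in the second part in 1971 genes with at least 6 nucleosomes. In 932 genes (47.3%) they differed. The early distances were wider in 622 genes (31.6%) and the late ones in 310 (15.7%) at an adjusted p under 0.05 (limma, Benjamini-Hochberg), with a median difference of 2.73 bp. Among non-overlapping neighbours the median was -2.98 bp, with 121 genes wider early and 322 wider late. Leaving out the library labelled strain 3 gave 620 genes with a difference, against 932 with all 4 libraries. The genes wider late numbered 182 to 202 without the library labelled strain 1, 3 or 4. Such a change of setting can also change which genes enter the test.

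Dyads also formed a train upstream of the last nucleosome, with lower peaks and over fewer repeats than downstream of +1. Both trains were aligned on a called dyad, and no other anchor was run. Peaks next to a called dyad follow in part from the spacing of the calls, so phasing by the gene end itself was not tested. Upstream of the last nucleosome, the dyad peaks lay at 168.8, 334, 498 and 669 bp. The first held 17.9 dyads per kb and the fourth 9.64, and the trough on the near side was 25.1% ± 2.89 of the peak at the second repeat and 54.5% ± 2.55 at the fourth. At the fifth repeat the trough was 75.1% ± 2.66 of the peak. In genes with at least 10 nucleosomes the score was 0.681 ± 0.0108 at the last nucleosome, 0.661 at the second, 0.621 at the third, 0.596 at the fourth and 0.582 at the fifth from last, the lowest point. The score was higher again at 6 to 10 nucleosomes from the last, which in the shorter of these genes are +1 and the nucleosomes next to it. The last exceeded the fourth from last by 0.0146, 0.0386, 0.0165 and 0.0211 over all genes (0.0227 ± 0.0110), and by 0.0845 ± 0.0111 in genes with at least 10 nucleosomes. Both had p = 0.13 by the exact sign-flip permutation test. Over all genes, the last nucleosome before a tandem neighbour scored 0.749 (2168 genes), and the nucleosome 3 before it 0.671 (1839 genes). Before a convergent neighbour these scored 0.652 (2364 genes) and 0.680 (2043 genes), and the last was lower in all 4 libraries. Shorter genes enter only the mean at the last, so these means do not cover the same genes. In genes with at least 10 nucleosomes, the same genes at each position, the last was higher in all 4 libraries for either direction. The scores there were 0.753 and 0.605 before a tandem neighbour (896 genes), and 0.612 and 0.588 before a convergent neighbour (955 genes). The library labelled strain 2 gave the largest end difference, and the value over all genes was 0.0175 without it. The direction of the spacing difference at the end depended on the setting. The last interval minus the fourth was -0.169, 1.22, 0.825 and 0.424 bp, with an exact p of 0.250, and 3 other settings reversed it. In genes with at least 10 nucleosomes it was 3.07 ± 0.969 bp, and among neighbours that do not overlap (chosen after seeing the data) 0.543 ± 0.207 bp, each positive in 4 of 4 libraries (exact p = 0.13).

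The score of the last nucleosome differed with the direction of the next gene. A gene end that faces the start of the next gene (a tandem pair) lies near a promoter, and a gene end that faces another end (a convergent pair) does not. In long genes the last nucleosome scored 0.607, 0.623, 0.601 and 0.617 before a convergent neighbour (955 genes) and 0.746, 0.773, 0.746 and 0.747 before a tandem neighbour (896 genes). The 2 sets of library values did not overlap. At the fifth from last they were 0.579 ± 0.00633 and 0.584 ± 0.00966. In the last call, 80.0% ± 2.53 overlapped a neighbour before a convergent gene and 40.0% ± 3.38 before a tandem gene. Other differences between the genes of these pairs were not tested. At the gene start the +1 score was 0.813 where the upstream gene pointed away (2360 genes) and 0.790 where it was tandem (2171 genes).

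**Figure D4:**
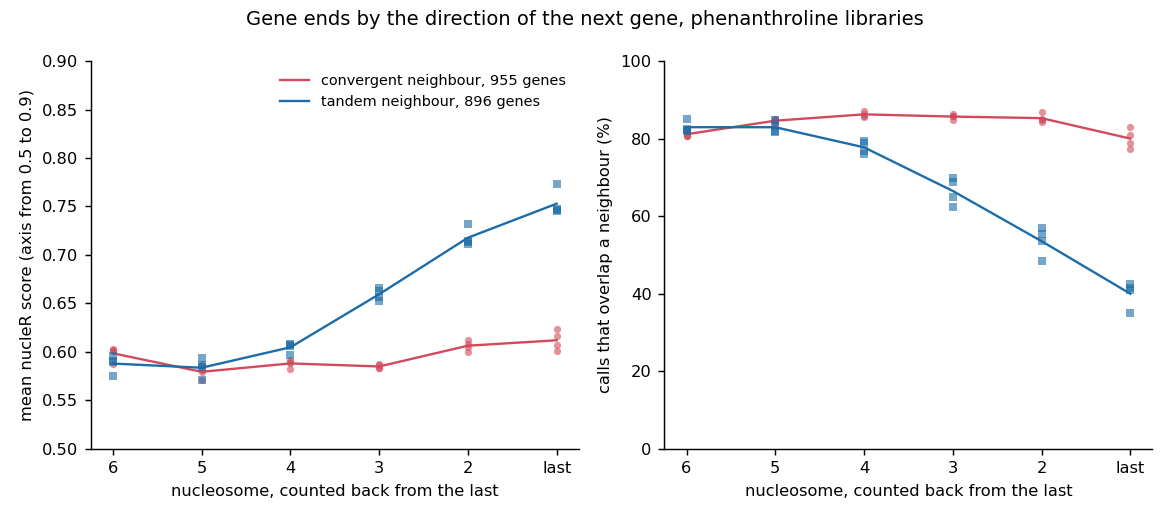
Mean nucleR score (axis from 0.5 to 0.9, left) and percent of calls that overlap a neighbour (right) for the last 6 nucleosomes of genes with at least 10 nucleosomes, split by the direction of the next gene. Points are the 4 phenanthroline libraries and lines their means. The last nucleosome averages 0.612 before a convergent neighbour and 0.753 before a tandem one, and the fifth from last 0.579 and 0.584.

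The middle of short genes was better ordered than the middle of long ones. In genes with 3 nucleosomes the middle one scored 0.781 ± 0.00853, in those with 6 the middle ones 0.744 ± 0.00158, in those with 9 0.681 ± 0.00757 and in those with 16 or more 0.545 ± 0.0195. The middle calls overlapped a neighbour in 39.8% ± 3.04, 44.3% ± 2.08, 61.1% ± 4.14 and 88.3% ± 1.69 of cases in the same 4 classes. The +1 nucleosome did not follow this trend, at 0.785 ± 0.00796 in genes with 3 and 0.823 ± 0.00775 in genes with 16 or more nucleosomes. In every library the middle score of the longest class was the lowest of all classes. The middle is +2 in genes with 3 nucleosomes and lies farther from +1 in longer genes. Score also fell with distance from +1, so these classes differ in position as well as in length. Over all genes +2 scored 0.808 ± 0.00596, above the middle of genes with 3 nucleosomes.

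The score between +1 and the last nucleosome varied with their distance, counted in repeats. The series was designed to ask how gene length bears on periodicity, and a gene whose array spans a whole number of repeats can be in step from both ends. With the repeat at 161.4 bp, arrays of 2.9 to 6.9 repeats whose distance lay within 0.1 repeat of a whole number (464 genes) had an interior score of 0.779, 0.778, 0.778 and 0.774. Arrays with a remainder of 0.1 to 0.3 repeat (336 genes) were as high, at 0.777 ± 0.0045. Arrays with a remainder of 0.5 to 0.7 repeat (171 genes) had 0.689, 0.684, 0.683 and 0.678. These bins also differed in length, with a mean distance from +1 to last of 825 bp at a remainder of 0.5 to 0.7 and 712 bp near a whole number, and score fell with length in general. The interior calls overlapped in 37.5% ± 1.62 of cases near a whole number and 66.3% ± 1.36 at a remainder of 0.5 to 0.7. In longer arrays, above 6.9 repeats, the scores were 0.716 ± 0.00716 in 265 genes near a whole number and 0.681 ± 0.00492 in 182 genes with a remainder of 0.5 to 0.7, with mean distances of 1328 bp and 1451 bp from +1 to last. The highest bin there was a remainder of 0.1 to 0.3, at 0.726 ± 0.00796 in 223 genes, above the whole-number bin in all 4 libraries. With the first peak, 165 bp, as the repeat, the shorter arrays gave 0.786 ± 0.00262 near a whole number and 0.689 ± 0.00240 at 0.5 to 0.7. A remainder of 0.1 to 0.3 then gave 0.744 ± 0.00554. In the longer arrays the order of the first 2 bins was reversed with this repeat, in all 4 libraries. The whole-number bin was then the highest, at 0.723 ± 0.00758 in 232 genes, against 0.686 ± 0.00824 in 179 genes at 0.1 to 0.3. The place of the highest bin thus depended on the repeat chosen. The distance and the scores come from the same calls, so this is a description.

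Gene by gene, most of the genes that passed the test had a higher score at +1 than at the last nucleosome. Of 3698 genes with at least 4 nucleosomes, 2448 (66.2%) had a difference at an adjusted p under 0.05 in limma. The +1 was higher in 1982 (53.6%) and last was higher in 466 (12.6%), with a median difference of 0.104. The mean score of +1 and last differed from that of the nucleosomes between them in 2168 of 3369 genes (64.4%, same test). It exceeded the interior in 1685 (50%) and fell below it in 483 (14.3%), with a median difference of 0.0609. The 8 largest differences in favour of +1 were in RRD1 (a protein phosphatase activator), STE24 (the protease that matures a-factor), HAP2 (a factor for respiratory genes), YKU70 (a Ku subunit), MDM20 (an N-terminal acetyltransferase subunit), NPL6 (a subunit of the RSC remodeller), PRI2 (DNA primase) and BCK1 (a kinase of the cell wall integrity pathway). The +1 scores of these 8 were 0.906 to 0.959 and their last scores 0.194 to 0.335, with adjusted p = 7.06e-05 for each in limma.

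The last call of these genes had a low score in all 4 libraries. STE24 (X, 642007 to 643368) scored 0.965, 0.923, 0.943 and 0.949 at +1 and 0.265, 0.235, 0.259 and 0.216 at the last nucleosome, and the ranges are far apart. BCK1 (X, 247255 to 251691), with 31 nucleosomes, scored 0.943, 0.977, 0.961 and 0.948 at +1 and 0.330, 0.327, 0.286 and 0.396 at the last. YKU70 (XIII, 838187 to 839995) held 0.906 at +1 and 0.263 at the last, a difference of 0.642 ± 0.0228 (SE). RRD1 (IX, 55198 to 56379) had the largest difference, 0.763 ± 0.0219 (SE), with the low end at 0.183, 0.194, 0.195 and 0.203. Its difference was 0.0503 (adjusted p = 0.164, limma) when arrays were rebuilt without the library labelled strain 2. NPL6 had 0.639 with all libraries, 0.0676 without the library labelled strain 2 (adjusted p = 0.0828, limma) and 0.167 without that labelled strain 3 (adjusted p = 0.0813, limma). MDM20 had 0.640 with all libraries and 0.291 without the library labelled strain 4. Leaving out calls with a score under 0.4 removes such last calls by construction, and another nucleosome then ends the array. The difference was then 0.0533 in RRD1, 0.0766 in HAP2, 0.140 in NPL6, 0.158 in STE24, 0.220 in YKU70, 0.306 in MDM20, 0.352 in BCK1 and 0.399 in PRI2.

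The 8 genes in which the last nucleosome exceeded +1 by most had a +1 call of low score. They were ACA1 (a transcription factor of the ATF/CREB family), ADI1 (methionine salvage), YMR253C, CSE2 (a Mediator subunit), DCV1, TMA19 (a ribosome-associated protein), YER079W and EXG1 (a cell wall glucanase). Their +1 scores were 0.257 to 0.422 and their last scores 0.778 to 0.901. ACA1 (V, 240032 to 241501) scored 0.241, 0.259, 0.343 and 0.311 at +1 and 0.856, 0.888, 0.819 and 0.910 at the last, a difference of -0.580 ± 0.0328 (SE, limma adjusted p = 0.00011). CSE2 (XIV, 643744 to 644193) is the neighbour of NRM1, and its depleted region, 1084 bp ± 10.6, takes in the gap in which NRM1 held no calls. In EXG1 (XII, 728955 to 730301) the -1 and +1 dyads lay 129, 114.5, 113 and 114.5 bp apart. Calls of 147 bp overlap at such distances, which leaves no depleted region between them. In TMA19 (XI, 334412 to 334915) the distance was 415 to 425 bp, so a low +1 stood beside short and long distances alike. ADI1 had -0.579 with all libraries and -0.125 without the library labelled strain 4. YER079W had -0.472, against -0.139, -0.135 and -0.164 without the libraries labelled strain 1, 3 and 4. With calls of score under 0.4 left out, ADI1 had -0.143, YMR253C -0.144 and YER079W -0.140.

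The width of the depleted region and the +1 score were related in a humped way. Genes were split into 5 near-equal classes by width, the distance from the -1 to the +1 dyad. In the narrowest class, 84.7 to 202 bp, the +1 score was 0.730, 0.731, 0.727 and 0.724. In the middle class, 255 to 281 bp, it was 0.859, 0.864, 0.851 and 0.843, and in the widest class, 313 bp and above, 0.777, 0.785, 0.773 and 0.770. Both the narrow and the wide end were below the middle in all 4 libraries. The +1 dyad had a median SD over the libraries of 3.70 bp in the narrowest class, 2.00 bp in the middle class and 2.83 bp in the widest. The +1 nucleosome was chosen by its gap, so the width and the choice of +1 are not independent.

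Most nucleosomes were called in all 4 libraries, and their dyads lay closer together where the score was high. Of 57019 places with a call in any library, 50827 (89.1%) were called in all 4. The places were peaks of these same calls, a call within 60 bp was assigned to them, and there was 1 call per 160.7 bp on average. Part of this share therefore follows from the rule. Each place kept only the nearest call of a library, so the other calls near it, and calls beyond 60 bp, enter neither this share nor the dyad SDs. Over the places called in all 4, the SD of the dyad had a median of 4.92 bp, 51.0% had an SD of 5 bp or less and 19.2% one over 15 bp. In 5 near-equal classes of mean score the median SD was 13.5, 11, 6.06, 3.50 and 2.06 bp, low score to high. In the highest class, with scores from 0.851, 96.9% agreed to 5 bp or less, and in the lowest, with scores up to 0.525, 18.7% did. Nucleosomes that overlapped a neighbour in all 4 libraries had a median SD of 9.22 bp and those that overlapped in none 2.52 bp. Of the dyads of 1 library, 78.2% lay within 20 bp of a dyad of another, over the 6 pairs from 75.9% to 80.9%, where a window of that size at the mean density of calls holds 25.5%. Within 5 bp it was 49.3%, against 6.84% at the mean density. The pair labelled strain 1 and 3 was closest and the pair labelled 1 and 2 least close at each distance. Across 52390 to 52829 nucleosomes called in both libraries of a pair, the scores had a Pearson r of 0.818 to 0.879, as a description, since neighbours in 1 genome are not independent.

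Whole genes differed widely in how closely the libraries placed their arrays. Among 1980 genes with at least 6 nucleosomes, all called in 4 libraries, the mean dyad SD of a gene had a median of 6.50 bp. The 5 smallest were 1.37 bp in ESF2 (ribosome assembly), 1.44 bp in VAM7 (vacuole fusion), 1.44 bp in THP1 (mRNA export), 1.52 bp in BCD1 (snoRNA assembly) and 1.54 bp in DCN1 (cullin neddylation). VAM7 (VII, 91432 to 92382) had a gene-body score of 0.930, 0.943, 0.913 and 0.922, and no call of it overlapped a neighbour in any library. The 5 largest were 18.2 bp in TPO3 (a polyamine transporter), 16.7 bp in GCN4 (the activator of amino acid synthesis), 15.7 bp in FCY21 (a permease), 15.4 bp in GAT1 (an activator of nitrogen genes) and 15.4 bp in CMR3. GCN4 (V, 138918 to 139763) had a gene-body score of 0.474, 0.564, 0.524 and 0.554, with 96.4% of its calls overlapping. All 5 of the second set had 81.8% to 100% of calls overlapping, and those of the first set 0% to 8.33%.

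Gene groups differed in their depleted regions and in the order of their bodies. The lists are by function, with 4 to 60 genes of at least 3 nucleosomes each, and their values are medians over genes, beside the same over all genes. Widths of the depleted region are again distances from the -1 to the +1 dyad. Ribosomal protein genes had wide depleted regions, 381 bp for the large and 385 bp for the small cytoplasmic subunit, against 269 bp over all genes, with library medians between 381.5 and 387 bp. Their +1 scores were 0.809 and 0.774, against 0.853 over all genes, and their gene-body scores 0.707 and 0.691, against 0.713. Among 53 tested genes of the large subunit, 26 were higher at +1 and 11 at last, and of 32 of the small subunit 14 and 4, where all genes gave 53.6% and 12.6%. Within the large subunit RPL36A had the highest gene-body score, 0.833 ± 0.0235, and RPL31A the lowest, 0.496 ± 0.0111. In the small subunit these were RPS21A, 0.888 ± 0.0111, and RPS26A, 0.492 ± 0.0344. Many of these genes have near-identical copies, where the placing of reads is uncertain.

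Genes of the mitochondrial ribosome had the best-ordered bodies of the 14 lists and glycolysis genes the least ordered. Mitochondrial ribosome genes had a gene-body score of 0.838, with 25% of calls overlapping, against 0.713 and 52.3% over all genes. In the 4 libraries the score was 0.823, 0.824, 0.831 and 0.809, each above the 0.709 to 0.717 of all genes. These are short genes, with a median of 4 nucleosomes against 8, and short genes scored higher in general. Of 29 tested, 21 were higher at +1 and 0 at last, where all genes gave 53.6% and 12.6%. MRP21 had the highest score of the list, 0.927 ± 0.00696, and MRP8 the lowest, 0.557 ± 0.0307.

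Genes of glycolysis and fermentation, some of which are among the most transcribed in rich medium, had a narrow depleted region of 195 bp, against 269 bp. Their gene-body score was 0.585, with 87.2% of calls overlapping, and their +1 score 0.581, against 0.853. Of 11 tested, 0 were higher at +1 and 7 at last, where all genes gave 53.6% and 12.6%. The library medians of the gene-body score, 0.617, 0.603, 0.580 and 0.589, all lay below those of all genes. TDH1, a glyceraldehyde-3-phosphate dehydrogenase, had the highest gene-body score, 0.733 ± 0.0534, and GLK1, glucokinase, the lowest, 0.464 ± 0.0311. In TDH1 the difference of +1 minus last was -0.221 ± 0.0324 (SE, limma adjusted p = 0.00167). These genes have 9 nucleosomes at the median, close to the 8 of all genes.

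**Figure D5:**
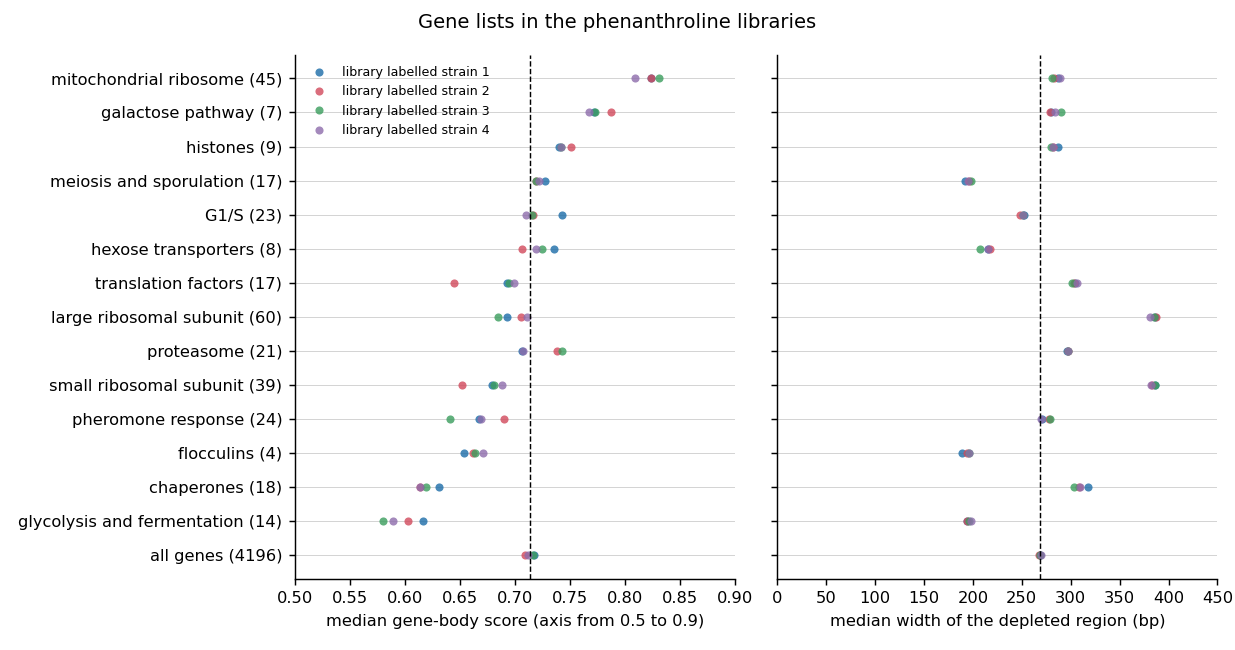
Median gene-body score (axis from 0.5 to 0.9, left) and median width of the depleted region in bp (distance from the -1 to the +1 dyad, right) of 14 gene lists, with all genes in the bottom row and as a dashed line, 1 point per phenanthroline library and the number of genes with at least 3 nucleosomes in brackets. Mitochondrial ribosome genes lie highest in score at 0.809 to 0.831, glycolysis genes lowest at 0.580 to 0.617, and ribosomal protein genes have the widest regions at 381.5 to 387 bp.

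Other lists lay between these. Proteasome genes had a +1 score of 0.867 and a body score of 0.703, and of 19 tested 13 were higher at +1 and 0 at last, where all genes gave 53.6% and 12.6%. The same shares of all genes stand beside the counts that follow for translation factors and chaperones. RPN13 scored highest, 0.885 ± 0.0364, and RPN2 lowest, 0.540 ± 0.0141. Translation factor genes had 12 of 15 higher at +1 and 2 at last, a wide region of 304 bp, and the extremes TIF11, 0.884 ± 0.00703, and YEF3, 0.531 ± 0.0190. Chaperone genes had a body score of 0.626, a +1 score of 0.668 and a dyad SD of 9.80 bp, against 6.78 bp over all genes, with 6 of 18 higher at +1 and 6 at last. SSA4 had the highest body score of the chaperones, 0.687 ± 0.00935, and HSP104, a disaggregase, the lowest, 0.465 ± 0.0223.

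Pheromone, G1/S and histone genes each ranged from high to low scores. The cells were MATa and held in G1, and pheromone response genes had a body score of 0.672, with 7 of 22 higher at +1 and 6 at last, beside 53.6% and 12.6% of all genes. STE50, an adaptor of the pathway, had the highest, 0.867 ± 0.0152, and STE2, the alpha-factor receptor of MATa cells, the lowest, 0.460 ± 0.00799. STE2 had 0.457, 0.471, 0.459 and 0.452 in the 4 libraries and a depleted region of 414 to 430 bp, with 97.9% of calls overlapping. G1/S genes had a high +1 score of 0.896 and a body score of 0.723, with 13 of 22 higher at +1 and 5 at last, beside the same 53.6% and 12.6%, and ran from CLB5, an S-phase cyclin, at 0.887 ± 0.00902 to PCL2, a G1 cyclin, at 0.581 ± 0.0222. Histone genes had a body score of 0.749, from CSE4, the centromeric histone H3, at 0.897 ± 0.00719 to HHT1, histone H3, at 0.459 ± 0.0202. Of the 5 histone genes tested 2 were higher at +1 and 0 at last, again beside 53.6% and 12.6%.

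Galactose pathway genes, repressed in glucose, had a body score of 0.781, against 0.713 over all genes, with 43.2% of calls overlapping, and of 7 tested 1 was higher at +1 and 4 at last, beside 53.6% and 12.6% of all genes, which also stand beside the other counts given here. GAL10 scored 0.836 ± 0.0296 and PGM2, a phosphoglucomutase also used in glucose, 0.545 ± 0.0125. Meiosis and sporulation genes had a body score of 0.725 and a narrow region of 192 bp, with 2 of 15 higher at +1 and 5 at last, and ran from MEI5, 0.878 ± 0.0161, to SPO22, 0.540 ± 0.0151. Hexose transporter genes had a body score of 0.715 and a region of 213 bp, with 3 of 8 higher at +1 and 3 at last, from HXT9, 0.768 ± 0.0181, to HXT2, 0.644 ± 0.0352. Flocculin genes, long and repetitive with a median of 20 nucleosomes, had a body score of 0.666, with 2 of 4 higher at +1 and 0 at last, from FLO9, 0.677 ± 0.0102, to FLO1, 0.590 ± 0.00649. Hexose transporter, flocculin and histone genes also have close copies in the genome, where the placing of reads is uncertain. These lists are short, and the values describe their members in these libraries only.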

How the data were processed

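The 4 phenanthroline libraries were MNase-seq maps of S. cerevisiae, each deposited as a list of nucleR calls on sacCer3, per the submitters' processing notes. The score deposited by the authors, from 0 to 1, is the mean of a width score and a height score (tested on every call). The sources used here do not give alignment or fragment filters, and the files give no depth, so no counting error can be set. No comparison with untreated libraries was made.

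Consensus nucleosomes were peaks of the dyads of the 4 libraries, smoothed with a kernel SD of 20 bp and at least 80 bp apart, called in at least 3 libraries, with calls assigned within 60 bp. The +1 was the downstream side of the widest gap between 150 bp upstream and 200 bp downstream of the start codon, and arrays ran from it to the last nucleosome of the coding sequence (RefSeq R64 names and positions). Mean distances used dyads 100 to 300 bp apart. Library-level differences were tested with an exact two-sided sign-flip permutation test, whose smallest p is 0.13 with 4 libraries and 0.25 with 3. Gene-level differences were tested with limma 3.58.1 (R 4.3.3, intercept model, Benjamini-Hochberg over all genes tested, threshold 0.05), which was tested on simulated data. Other steps used Python 3.11.15, numpy 2.4.6, pandas 2.3.3, scipy 1.17.1 and matplotlib 3.10.9.

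Named genes were the 8 largest differences of +1 minus last in each direction with the same sign in 4 libraries, the 5 smallest and 5 largest dyad spreads, the highest and lowest gene-body score of each list, and the genes of the genotype and insertions. NRM1 was added after its values were seen. A planned description of promoter sequence was not run. Members and lists were chosen with earlier results of these data known, and the lists received no test. The alternatives were a score minimum of 0.4, other consensus and +1 rules, width or height score alone, other distance limits and leaving out each library.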

Additional observations from a re-analysis of the deposited data

Results flagged for a closer look

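In 13 of 189 groups of 4 library values, 1 library lay farther from the others than Dixon's 95% limit. Chance flags about 1 in 20 groups, and many of the 189 share calls. The library labelled strain 2 was the one apart in 8 of them. In genes with at least 10 nucleosomes, its score at the sixth nucleosome from the end was 0.582, against 0.596 to 0.599 in the others, and 83.6% of its calls there overlapped a neighbour, against 81.3% to 81.6%. Its mean dyad distance in these genes was 161.5 bp from +3 to +4, against 162.6 to 162.7 bp, and 159.1 bp from +6 to +7, against 156.9 to 157.3 bp.

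The other values of this library were in single genes. RRD1 scored 0.974 at +1, against 0.949 to 0.953, and HAP2 0.350 at the last nucleosome, against 0.241 to 0.256. The gene-body score was 0.479 in RPL31A, against 0.50 to 0.502 over the other libraries, and 0.831 in RPN13, against 0.899 to 0.909.

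The library labelled strain 3 stood apart in 4 values. Its median distance to the next dyad was 156 bp, against 155 bp in each of the others. Its nearest dyad after NRM1 lay at 643591 on chromosome XIV, against 643675 to 643682. YKU70 scored 0.294 at the last nucleosome, against 0.250 to 0.257, and MRP8 had a gene-body score of 0.511, against 0.570 to 0.577. In the library labelled strain 1, TPO3 had a gene-body score of 0.546, against 0.508 to 0.513.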

How the results depend on the processing

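The mean differences in score by position and in overlap kept their direction under every alternative run. The first spacing difference, 5.51 bp, stayed positive on average but was 0.527 bp among non-overlapping neighbours, where it was negative in 1 of 4 libraries. That choice leaves out the short distances themselves. The spacing at the gene end did not: the last minus the fourth interval was 0.575 bp, but -0.835 bp with calls of score at least 0.4, -0.751 bp with nucleosomes called in all 4 libraries and -0.632 bp with distances of 120 to 250 bp. Agreement was 66.5% within 10 bp, and the fifth trough 7.97% of its peak with score at least 0.4. The median of +1 minus last was 0.0958 with score at least 0.4, 0.0944 with assignment within 30 bp, 0.120 with the width score alone and 0.0869 with the height score alone. The median early minus late spacing was 1.42 bp with score at least 0.4, 1.02 bp with nucleosomes called in all 4 libraries (1428 genes called, 653 wider late), 0.760 bp with distances of 120 to 250 bp (388 wider early) and -2.98 bp among non-overlapping neighbours (443 called, 121 wider early), an alternative chosen after seeing the data. A setting can change which genes enter the test, so these counts are not shares of the same genes as in the main run. The cause of these shifts was not tested. With score at least 0.4, RRD1 had 0.0533 and NPL6 0.140, and neither passed the limma threshold.

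Leaving out each library in turn gave 620 to 785 genes with a spacing difference (418 to 559 wider early, 182 to 226 wider late, median 2.89 to 3.56 bp), 2120 to 2232 genes for +1 minus last and 1978 to 2016 for ends minus interior. No paired analysis was possible because no comparison between treatments was made, and each difference was taken within a library. Depth is unknown, and 4 libraries of 4 strains cannot separate strain from digestion.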
